A study of Mus musculus with 2 samples.

Results

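The interferon response genes of fetal liver stem and progenitor cells were examined as a list of 33 of the 32285 genes counted, each a gene that interferons are known to induce or that carries out the response. The list was written by gene symbol, by known function and not by a measured threshold, although earlier results of these data were known when it was chosen. By role they were membrane restriction proteins (Ifitm1, Ifitm2, Ifitm3 and Bst2), antiviral effectors and their regulators (Ifit1, Ifit2, Ifit3, Rsad2, Samhd1, Isg15 and Usp18), transcription factors (Irf1, Irf7, Irf9 and Stat2), RNA sensing, editing and signalling proteins (Ifih1, Ddx58, Eif2ak2, Oasl2, Zbp1, Trim25 and Adar), GTPases (Gbp2, Gbp3, Igtp, Iigp1 and Irgm1) and others (Xaf1, Rtp4, Ifi27, Ifi35, Lgals3bp and Parp14). A set of 17 members with the classical induced pattern (the IFIT genes, Isg15, Irf7, Oasl2, Rsad2, Usp18, Rtp4, Xaf1, Zbp1, Iigp1, Igtp, Gbp2, Gbp3, Ifih1 and Ddx58) was also counted cell by cell.

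Cells came from mouse embryos at E14.5 on the CD1 background. Lineage-depleted fetal liver cells were sorted as LSK cells, that is lineage-negative, SCA1-positive and cKIT-positive, and sequenced from the 3′ end in droplets. The WT library was a pool of 2 embryos and the IκBα KO library a pool of 3 embryos of a targeted knockout line of Nfkbia, the gene of IκBα. LT-HSC stands in the titles of both samples, but LSK in the cell type label and the sorting protocol. With 1 library per genotype there was no replicate and no test, and genotype, library and embryo cannot be told apart; the 95% intervals below cover counting error only.

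Interferons act through cell surface receptors that activate JAK kinases and, through them, STAT proteins. A factor that contains STAT2 and IRF9 binds the interferon-stimulated response element (ISRE) in front of many antiviral genes, whereas the GAS element answers to interferon gamma. Stem cells are known to hold part of this response at a standing level without infection, and the Ifitm genes are prominent in it. IκBα keeps NF-κB factors in the cytoplasm, and NF-κB takes part in the induction of interferon beta and of several members of the list.

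After filtering, 3458 WT and 4417 KO cells remained, with medians of 28065 and 19560 unique molecular identifiers (UMIs, each marking 1 captured RNA molecule). Nfkbia had 1478 UMIs (13.6 CPM, counts per 1000000 UMIs) in the WT library and 7 UMIs (0.0707 CPM) in the KO library, in keeping with the genotype labels. Male cells, called from Y-linked UMIs without Xist, were 17.4% of the KO library and 0.116% of the WT library. Transcripts of both sort markers, Kit and Ly6a, were found together in 8.82% of WT and 4.87% of KO cells, so that the LSK label was only partly visible in the RNA; Ly6a, the gene of SCA1, is itself interferon-inducible. The libraries shared 6 barcodes among the kept cells.

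Cells were assigned to types by the number of marker genes with a UMI, with no member of the interferon list among the markers. Gates were applied in a fixed order and a cell took the first that it met. The HSC-like gate came after all others except the lymphoid-primed-like gate, so cells with enough HSC markers could lie in an earlier gate. The HSC-like gate, which asked for at least 3 of 8 markers (Hlf, Mecom, Mllt3, Procr, Meis1, Hoxa9, Fgd5 and Pdzk1ip1), held 812 WT and 696 KO cells with medians of 18791 and 13068 UMIs. The median HSC-like cell carried 4 of its own markers and 6 markers of other types in each library, and 246 WT and 262 KO cells lay at the lowest number of markers that the gate admits. Erythroid-primed-like cells were the most numerous, with 1671 WT and 2323 KO cells. The remaining gates ranged from 47 WT megakaryocyte-like cells to 429 KO ungated cells, which met no gate.

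The promoters of 6 members are shown because these genes carry the results below: Ifit1, Rsad2 and Isg15 were counted mainly or in part in rare cells, Ifitm2 and Bst2 were among the members with the highest levels, and Gbp3 was lower in KO HSC-like cells. Each line gives the bases from 150 to 30 before the RefSeq transcription start (GRCm38.p6), 5′ to 3′ on the strand of the gene, with capitals marking matches to the ISRE core (GAAA, any 2 bases, GAAA) on either strand.
Ifit1, chr19:34640739-34640859, plus strand: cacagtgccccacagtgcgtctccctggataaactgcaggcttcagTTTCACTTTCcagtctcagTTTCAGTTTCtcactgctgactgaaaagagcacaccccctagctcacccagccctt
Rsad2, chr12:26456482-26456602, minus strand: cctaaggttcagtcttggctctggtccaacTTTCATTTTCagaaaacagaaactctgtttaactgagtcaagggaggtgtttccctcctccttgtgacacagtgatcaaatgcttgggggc
Isg15, chr4:156200848-156200968, minus strand: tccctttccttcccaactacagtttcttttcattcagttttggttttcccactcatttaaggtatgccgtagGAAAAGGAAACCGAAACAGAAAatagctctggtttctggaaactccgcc
Ifitm2, chr7:140955991-140956111, minus strand: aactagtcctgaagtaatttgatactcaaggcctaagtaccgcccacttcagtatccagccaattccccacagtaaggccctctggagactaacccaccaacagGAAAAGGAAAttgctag
Bst2, chr8:71537502-71537622, minus strand: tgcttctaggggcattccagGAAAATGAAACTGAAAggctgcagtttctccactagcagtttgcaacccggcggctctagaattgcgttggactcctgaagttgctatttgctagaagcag
Gbp3, chr3:142559894-142560014, plus strand: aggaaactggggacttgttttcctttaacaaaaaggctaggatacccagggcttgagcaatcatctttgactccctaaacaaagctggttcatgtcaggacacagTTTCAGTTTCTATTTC

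Isg15, which encodes a ubiquitin-like modifier, held 3 overlapping matches, beginning 78, 72 and 66 bases before the start. Ifit1, Bst2 and Gbp3 held 2 matches each, and Rsad2 and Ifitm2 held 1 each. Over the 300 bases from 250 before to 50 after the start, the ISRE core was found in 15 of the 27 members with a promoter in the RefSeq table (55.6%), against 3.99% of 27025 genes. The GAS core TTCNNNGAA was found in 9 members (33.3%) against 9.55% of genes, and the NF-κB core (GGGA, any 4 bases, CC) in 8 members (29.6%) against 22.9% of genes. Of the 13 classically induced members with a promoter 9 held the ISRE core, as did 6 of the 14 others. Ifitm1 had no ISRE match in this window, whereas Ifitm3 did. A match of letters is a description and does not show that a factor binds there.

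Expression of the list in HSC-like cells was dominated by the 3 Ifitm genes, which encode membrane proteins that block the entry of viruses into the cytoplasm. These 3 genes made up 1528 of the 1969 CPM summed over all members in WT cells and 1714 of 2178 CPM in KO cells. Because 1 UMI is counted per captured 3′ end, these levels do not scale with transcript length, although capture and read assignment can differ between genes. The WT and KO levels were 590 and 644 CPM for Ifitm2, 564 and 660 CPM for Ifitm1, and 373 and 410 CPM for Ifitm3. On chromosome 7 (GRCm38) they lie at 140967221-140969825 for Ifitm1, 140954837-140955987 for Ifitm2, which overlaps Gm45717 on its own strand, and 141009586-141010770 for Ifitm3. Each of the 3 was seen in over 96% of HSC-like cells of both libraries, with the lowest share at 96.3% for Ifitm3 in KO cells.

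The next levels belonged to genes of viral restriction and of RNA sensing. Bst2, which encodes tetherin, a protein that holds budding virions on the cell surface, had 96.6 CPM in WT and 110 CPM in KO HSC-like cells. Samhd1, an enzyme that depletes deoxynucleotides, was at 76.0 and 67.2 CPM. The remaining of the 8 highest members were Eif2ak2 (34.8 and 36.2 CPM), which encodes the RNA-activated kinase PKR, Ifi35 (29.4 and 31.4 CPM) and Trim25 (26.0 and 26.9 CPM), a ubiquitin ligase of RIG-I signalling. Classical virus-induced effectors stood far lower: Isg15 was at 7.05 and 8.75 CPM, and Rsad2, which encodes viperin, at 0.547 and 3.42 CPM. No member was at 0 UMIs in HSC-like cells of either library.

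**Figure D1:**
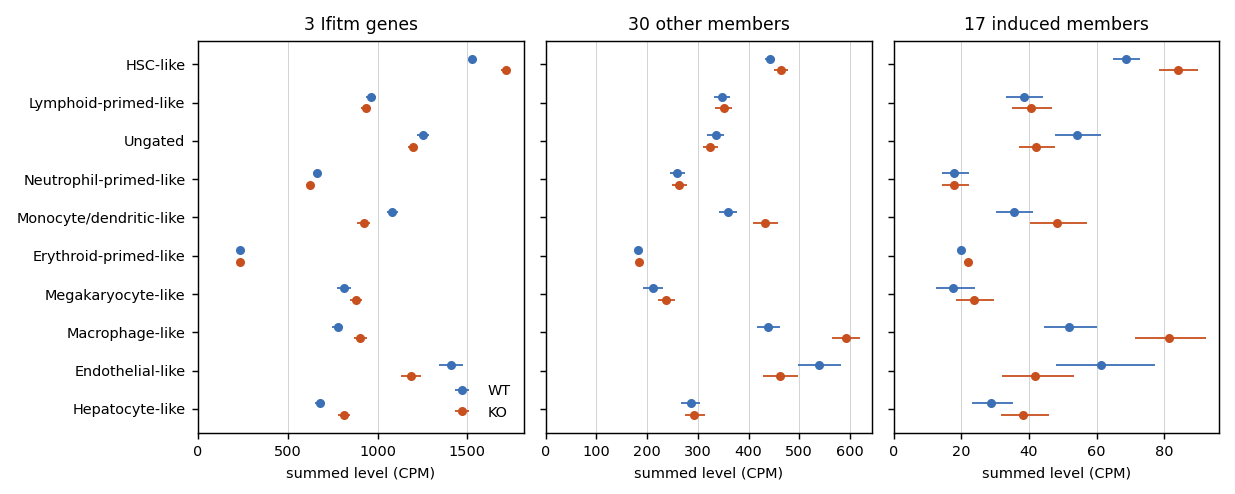
Summed level (CPM, linear axes from 0) of the 3 Ifitm genes, the 30 other members and the 17 induced members in each gated cell type, with WT in blue, KO in orange and horizontal bars for 95% counting intervals. The Ifitm sum was highest in HSC-like cells (1528 and 1714 CPM) and lowest in erythroid-primed-like cells in both libraries, whereas the other members were as high in macrophage-like and endothelial-like cells as in HSC-like cells.

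The standing level of the list was then compared between stem cells and progenitors, within each library. The summed CPM of the list was higher in HSC-like cells than in every gated progenitor type in both libraries. CPM is a share of the UMIs and not a number of transcripts per cell, and the types differed in UMIs per cell. The difference was widest towards erythroid-primed-like cells. The summed level was 1969 CPM in WT HSC-like cells against 415 CPM in WT erythroid-primed-like cells, which is 4.74-fold (log2 2.25, 95% interval 2.22 to 2.27). In the KO library the levels were 2178 and 419 CPM, or 5.20-fold (log2 2.38, 2.35 to 2.40).

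Towards the other progenitors the order of the differences was the same in both libraries from neutrophil-primed-like to lymphoid-primed-like to monocyte/dendritic-like cells. Neutrophil-primed-like cells (921 and 884 CPM in WT and KO) lay below HSC-like cells by log2 1.10 and 1.30. Lymphoid-primed-like cells (1311 and 1288 CPM) gave log2 0.59 and 0.76, and monocyte/dendritic-like cells (1441 and 1356 CPM) gave log2 0.45 and 0.68. Median-of-ratios scaling lowered the WT values to 1.88 for erythroid-primed-like, 0.94 for neutrophil-primed-like, 0.39 for lymphoid-primed-like and 0.37 for monocyte/dendritic-like cells.

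Most single members differed in the direction of the sum towards the erythroid and neutrophil branches. A member was counted as higher or lower when its level differed by at least 0.5 on the log2 scale and it had at least 50 UMIs in the compared cells together. Against erythroid-primed-like cells 24 of 27 members passing that minimum were higher in WT HSC-like cells and 23 of 27 in KO, where 41.2% and 40.7% of all genes were. The member with a negative difference was Usp18, which encodes an ISG15 protease that dampens interferon receptor signalling, at -2.61 in WT and -1.09 in KO. The median difference of the members was 1.70 in WT and 1.82 in KO, and that of all genes 0.30 in both. Usp18 had 163 UMIs in WT and 142 UMIs in KO erythroid-primed-like cells against 7 and 11 UMIs in HSC-like cells.

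Towards the erythroid branch Ifitm3, Ddx58 and Rtp4 differed by at least 4 in both libraries, and Ifitm1, Irf1, Isg15, Lgals3bp and Parp14 by at least 3. Ifitm1 had 36.2 CPM in WT and 39.0 CPM in KO erythroid-primed-like cells, log2 3.96 and 4.08 below HSC-like cells. Ifitm3 stood at 22.9 and 24.5 CPM there, a difference of 4.03 and 4.06. Ddx58, the gene of the RNA sensor RIG-I, had 25 and 31 UMIs among all erythroid-primed-like cells and differed by 4.42 and 4.25. By contrast Ifi35, Igtp and Trim25 differed by 0.11 to 0.57 in both libraries, so that the members were not lower by a common factor. Ifitm1 was detected in 19.6% of WT and 16.0% of KO erythroid-primed-like cells although their medians of 35359 and 23588 UMIs were above those of HSC-like cells.

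Against neutrophil-primed-like cells 20 of 26 members were higher in WT HSC-like cells and 20 of 25 in KO, and none was lower, against 25.0% and 24.3% of all genes higher and 8.78% and 10.2% lower. The medians were 1.02 and 1.25, with 0.13 for all genes in both libraries. Ifitm3 again differed widely, with 62.3 CPM in WT and 44.8 CPM in KO neutrophil-primed-like cells against 373 and 410 CPM in HSC-like cells. Ifitm2 differed less, with 437 and 402 CPM. The interferon-regulated factor gene Irf9 differed by 2.41 (1.54 to 3.43) in WT and 1.52 (0.84 to 2.26) in KO. Irf7 differed by 3.11 (1.19 to 6.18) and 3.61 (1.68 to 6.69). Of its 63 WT and 54 KO UMIs in both types together, 61 and 52 lay in HSC-like cells, so it passed the minimum through that gate.

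Lymphoid-primed-like cells were closer to HSC-like cells. Of the members passing the minimum 17 of 26 were higher in WT HSC-like cells and 13 of 25 in KO, where 24.8% and 16.4% of all genes were. Lower were 1 member in each library and 2.91% and 3.83% of all genes. The member lower in HSC-like cells was Ifi27, a mitochondrial interferon-induced gene, with differences of -0.83 and -0.62. Bst2 was nearly level between the types, with 92.8 and 94.7 CPM in lymphoid-primed-like cells, as was Irf1 in WT cells, with 15.3 CPM in HSC-like and 15.2 CPM in lymphoid-primed-like cells.

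Towards monocyte/dendritic-like cells 10 of 26 members were higher in WT HSC-like cells and 11 of 26 in KO, against 20.5% and 20.3% of all genes. In each library 1 member was lower, against 9.24% and 10.6% of all genes. Isg15, Rtp4, Lgals3bp and Ddx58 had the widest differences in WT among members with at least 50 UMIs in both libraries, between 2.74 and 3.75. HSC-like cells held 116 of the 121 WT UMIs of Isg15 in both types, 147 of 153 of Rtp4 and 140 of 143 of Ddx58. These members thus passed the minimum through HSC-like cells, and their intervals were wide (2.18 to 6.05 for Ddx58). In KO Rtp4, Lgals3bp and Ddx58 differed by 2.17 to 2.89, and Isg15 by 0.69 with an interval that included 0 (-0.11 to 1.59). There 80 of 83 Rtp4 and 97 of 103 Ddx58 UMIs lay in HSC-like cells. Gbp3, an interferon-induced guanylate-binding protein, went the other way, with 9.47 CPM in WT and 11.6 CPM in KO monocyte/dendritic-like cells and differences of -0.70 and -1.94.

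**Figure D2:**
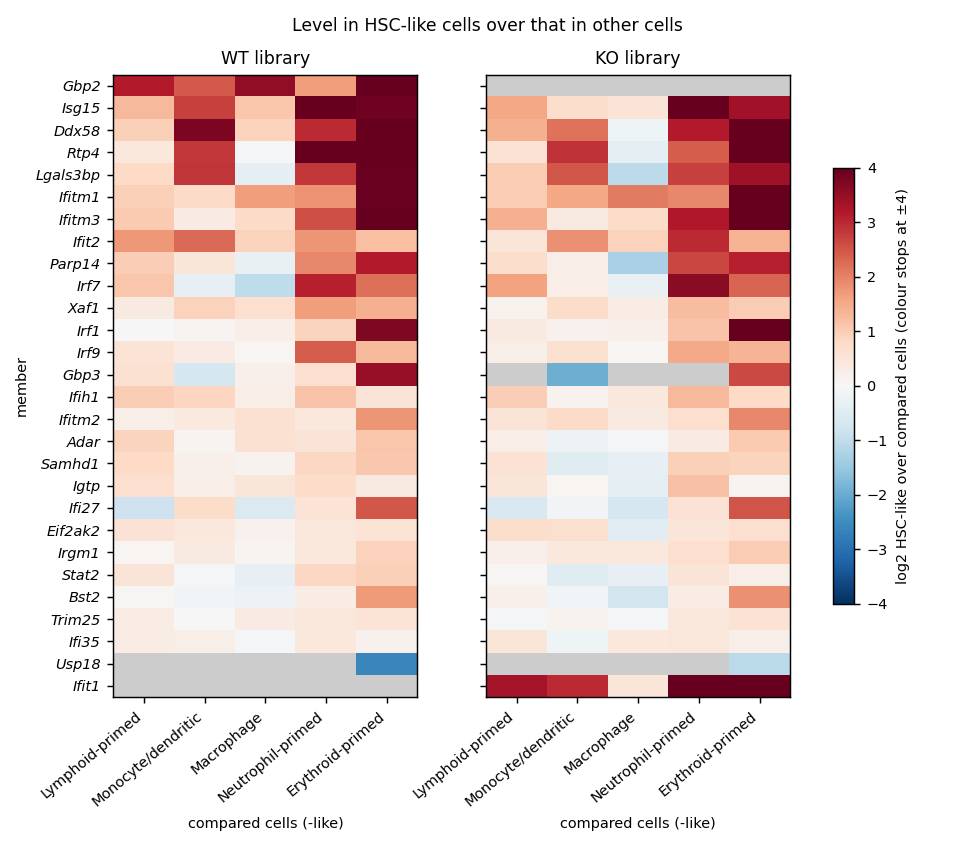
Level in HSC-like cells over that in 5 other cell types (log2, colour scale stopping at 4 in each direction) for each member in the WT and KO libraries, with red for higher in HSC-like cells, blue for lower and grey for fewer than 50 UMIs. The erythroid-primed-like and neutrophil-primed-like columns were red for most members, and the macrophage-like column of the KO library held both colours.

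Macrophages are a main site of interferon responses, and here the list separated by gene. The list summed to 1216 and 1497 CPM in macrophage-like cells of WT and KO, below HSC-like cells by log2 0.70 and 0.54. Without the Ifitm genes the sum was level in WT, with 442 CPM in HSC-like and 438 CPM in macrophage-like cells (log2 0.01, -0.07 to 0.09), and lower in KO HSC-like cells, with 464 against 592 CPM (log2 -0.35, -0.43 to -0.27). Against macrophage-like cells 9 of 26 members were higher and 2 lower in WT HSC-like cells, where 18.7% of all genes were higher and 14.8% lower. In KO 4 of 25 were higher and 4 lower, with 18.8% and 19.7% for all genes.

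Ifitm1 was the member that most set HSC-like cells above macrophage-like cells among those with at least 100 UMIs, with 564 against 177 CPM in WT and 660 against 156 CPM in KO. The members lower in WT HSC-like cells were Irf7 (-1.01) and Ifi27 (-0.58). In KO they were Parp14 (-1.29), Lgals3bp (-1.04), Bst2 (-0.73) and Ifi27 (-0.67). The macrophage-like gate held 75 WT and 118 KO cells, of which 5.33% and 15.3% were called doublets. Its cells also carried markers of megakaryocytes at 1182 and 1967 CPM, of erythroid cells at 1009 and 943 CPM and of monocytes at 647 and 953 CPM, with no marker of these 3 lists at 0. Their part in the macrophage-like levels was not tested.

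Ranked over HSC-like cells and the 4 progenitor gates, HSC-like cells held the highest level of 21 of 28 members with at least 50 UMIs in these types in WT (75%) and of 19 of 28 in KO (67.9%), against 32.1% and 29.9% of all genes. Over all 10 types they held the highest level of 12 of 29 members in WT (41.4%) and 10 of 29 in KO (34.5%), against 13.2% and 12.4% of all genes. Endothelial-like cells were the only type with a WT sum close to that of HSC-like cells, 1947 CPM in WT and 1647 CPM in KO, and held the highest Ifitm2 level at 1113 and 961 CPM. Ifitm1 in these cells was at 75.9 and 33.8 CPM, so that the neighbouring Ifitm genes of chromosome 7 differed in pattern.

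The question of whether loss of IκBα shifted the list was addressed by comparing the libraries within each type. In HSC-like cells the sum of the members was 1969 CPM in WT and 2178 CPM in KO, a log2 ratio of 0.15 (0.12 to 0.17), which was carried by the Ifitm genes. The 30 others had 442 and 464 CPM in sum, a log2 ratio of 0.07. The median ratio over the 28 members with at least 50 UMIs was 0.04, beside 0.02 over 10641 genes. The intervals of 20 of these 28 members included 0. Markers of other types also differed between the libraries in HSC-like cells: the 8 hepatocyte markers summed to 56.0 CPM in WT against 108 CPM in KO, with none at 0, and the 10 megakaryocyte markers to 50.5 against 72.2 CPM, with 1 at 0 in KO. Their part in the ratios was not tested.

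Of the 28 members, 1 was called higher (2.40% of all genes were) and 1 was called lower (2.79% of all genes). Ifit1, which binds foreign RNA that lacks the cap methylation of host RNA, had 12 UMIs (0.730 CPM) in WT and 85 UMIs (8.55 CPM) in KO HSC-like cells, and rose by log2 3.55 (2.67 to 4.56). These UMIs came from 12 cells in each library, and 1 KO cell held 54 of them. Without the cell with the most Ifit1 UMIs in each library the ratio was 2.22 (1.19 to 3.36). Gbp3 had 96 UMIs (5.84 CPM) in WT and 30 UMIs (3.02 CPM) in KO, and fell by log2 0.95 (interval -1.59 to -0.35). Its UMIs were spread over 89 WT and 29 KO cells with at most 2 in any of them, and without the top cell of each library the ratio was -1.02.

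The members just short of the fold were transcription factor genes. Irf7, the master regulator of type I interferon production, had 3.71 and 5.23 CPM in WT and KO, and Irf1 was at 15.3 and 21.4 CPM. Their ratios were 0.50 (-0.07 to 1.05) for Irf7 and 0.49 (0.22 to 0.76) for Irf1. Irf1, which NF-κB is known to induce, was detected in 23.8% of WT and 24.4% of KO cells. Irf9 and Stat2, which encode parts of the ISRE-binding factor, had ratios of 0.03 and -0.23 with intervals that included 0. Irf9 overlaps Rnf31 on its own strand and Igtp overlaps Irgm2, so that reads could be divided between them. Ifit3 has the near-identical copy Ifit3b, and its counts are uncertain for that reason.

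The Ifitm genes had small ratios with intervals above 0, namely 0.23 (0.18 to 0.27) for Ifitm1, 0.13 (0.08 to 0.17) for Ifitm2 and 0.13 (0.08 to 0.19) for Ifitm3. When gates were set on cells thinned to 8000 UMIs, Ifitm1 and Ifitm3 moved to 0.02 and 0.05. Bst2 had a ratio of 0.19 (0.07 to 0.30) and Samhd1 of -0.18 (-0.32 to -0.04). The 5 members under 50 UMIs were Ifit3 with 2 UMIs in WT and 7 in KO, Rsad2 with 9 and 34, Usp18 with 7 and 11, Iigp1 with 5 and 21 and Zbp1 with 5 and 8. Without the cells holding at least 8 induced members, described below, Ifit3 had 2 and 1 UMIs, Rsad2 8 and 8 and Usp18 7 and 4. Iigp1 then had 5 and 5 and Zbp1 2 and 0. HSC-like cells summed to 16444607 UMIs in WT and 9938277 in KO, so equal counts are not equal levels. The log2 ratio was then 0.73 for Rsad2 (-0.88 to 2.34) and for Iigp1 (-1.39 to 2.85). The cells left out were chosen by these same genes.

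**Figure D3:**
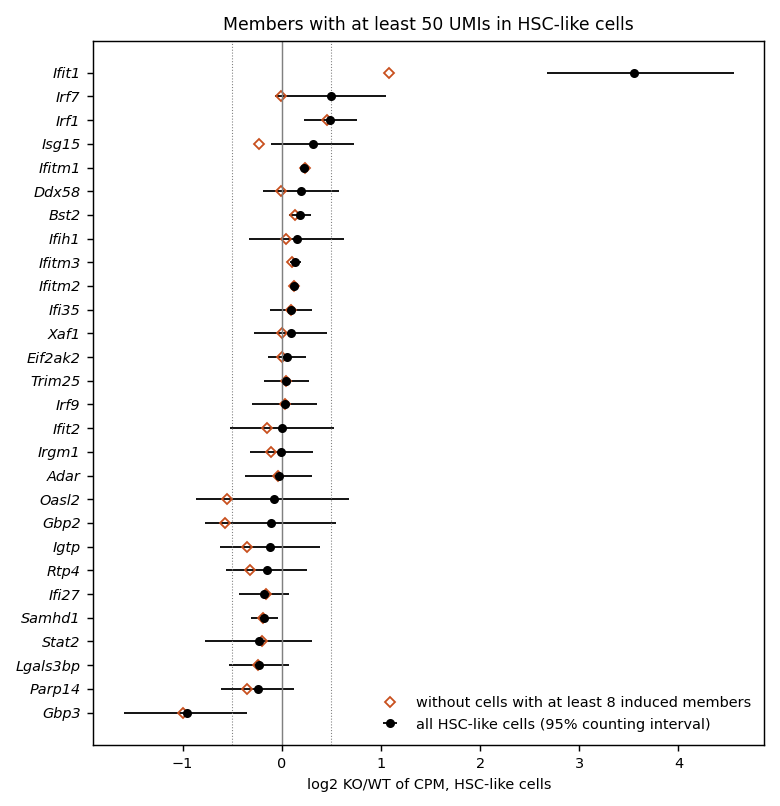
Log2 KO/WT of the 28 members with at least 50 UMIs in HSC-like cells (black points with 95% counting intervals) and the same without cells holding at least 8 induced members (open orange diamonds), with dotted lines at 0.5 in each direction. Ifit1 and Gbp3 lay beyond the lines, and Ifit1 moved from 3.55 to 1.08 when those cells were left out while Gbp3 stayed near -1.

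In the progenitor gates the median ratio of the members stayed near that of all genes. It was 0.01 in lymphoid-primed-like cells (0.06 for all genes), 0.03 in neutrophil-primed-like cells (0.02), 0.10 in monocyte/dendritic-like cells (0.01), 0.02 in erythroid-primed-like cells (-0.01) and -0.01 in ungated cells (0.04). The sums of the members differed by at most 0.09 on the log2 scale in these gates, with 415 CPM in WT and 419 CPM in KO erythroid-primed-like cells. The directions were not stable: the monocyte/dendritic-like sum turned from -0.09 to 0.14 with gates on thinned cells and to 0.27 without the Ifitm genes, and the erythroid-primed-like sum ran from -0.06 to 0.14 over the alternatives. From 12 members (neutrophil-primed-like) to 26 members (erythroid-primed-like) had at least 50 UMIs.

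Calls in the progenitors were few and differed between gates. In lymphoid-primed-like cells Adar, the gene of an RNA-editing enzyme, was higher by 0.57 (6.51% of all genes were called higher and 2.45% lower), with an interval that included 0. In neutrophil-primed-like cells none of 12 members was called, where 3.31% of all genes were higher and 3.55% lower. In monocyte/dendritic-like cells Ifi27 (0.67) and Ifi35 (0.50) were higher and Ifitm1 lower (-0.56), against 3.98% higher and 4.44% lower among all genes. For Ifitm1 in these cells 1568 UMIs were counted in WT, 250 of them in 1 cell, and 618 UMIs in KO.

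In erythroid-primed-like cells Isg15 rose from 30 UMIs (0.479 CPM) in WT to 51 UMIs (0.845 CPM) in KO, a log2 ratio of 0.82 (0.14 to 1.52), and 15 of the KO UMIs and 10 of the WT UMIs came from 1 cell each. Xaf1, a proapoptotic interferon-induced gene, rose from 3.53 to 5.003 CPM (0.50), and Rtp4 was lower by an amount whose interval included 0 (-0.55). Among all genes 3.02% were called higher and 1.97% lower there. In ungated cells Trim25 was higher (0.52) and Rtp4 lower (-0.55, with an interval that included 0), against 5.12% and 2.30% of all genes.

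Macrophage-like cells had the highest median KO/WT ratio of the members of any gate, and 12 of 16 members stood higher in the KO library. The sum was 1216 CPM in WT and 1497 CPM in KO (log2 0.30, 0.24 to 0.36), and the median ratio of 16 members was 0.34 beside 0.04 for all genes. Bst2 rose from 113 to 182 CPM (log2 0.69, 0.50 to 0.88), Eif2ak2 from 31.0 to 49.2 CPM (0.67) and Parp14, a mono-ADP-ribosyltransferase, from 14.0 to 23.6 CPM (0.75). Irf1 (0.53) and Adar (0.63) also passed the fold with intervals that included 0. In these cells 11.7% of all genes were called higher and 4.10% lower, against 5 of 16 members higher and 0 lower. The sum was at 0.49 without called doublets and at 0.09 when gates were set on thinned cells, and the doublet share and the megakaryocyte and monocyte markers given above also differed between the libraries; their part in the ratio was not tested.

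In the small non-progenitor gates the calls were for Ifitm1 and 3 other members. Ifitm1 was higher in KO megakaryocyte-like cells (0.65, where 7.06% of all genes were called higher and 5.23% lower), with 117 of 279 KO UMIs in 1 cell. In that gate 8 of 9 members stood higher in KO, with a median of 0.24 beside 0.01 for all genes. In endothelial-like cells Ifitm1 (-1.17) and Trim25 (-0.58, with an interval that included 0) were lower, against 5.42% of all genes lower and 7.05% higher. In hepatocyte-like cells Stat2 (0.63, with an interval that included 0) and Ddx58 (1.03) were higher, against 14.3% of all genes higher and 5.33% lower. Ifitm1 was thus called in 3 gates, in both directions. Adar, Rtp4 and Trim25 were called in 2 gates each. The intervals of Adar and Rtp4 included 0 in both of their gates, and that of Trim25 in endothelial-like cells. The share of all genes called in more than 1 gate was not computed, so these repeats have no background beside them.

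The cells that carried the induced members were then counted. An induced state in which many of these genes are on at once is known from cells that meet interferon, and here it was seen in 14 cells of both genotypes together. In the WT library 5 of 3458 cells (0.145%, 0.0470 to 0.337) held UMIs of at least 8 of the 17 induced members, and in the KO library 9 of 4417 cells (0.204%, 0.0932 to 0.386). The intervals cover counting error within 1 library each, so their overlap does not compare the genotypes. Cells were not thinned for this count. Their median depth was 28065 UMIs in WT and 19560 UMIs in KO, so these shares were not taken at equal depth. The 5 WT cells were 2 HSC-like cells, 1 lymphoid-primed-like, 1 monocyte/dendritic-like and 1 ungated cell. The KO cells were 4 HSC-like, 2 erythroid-primed-like and 2 macrophage-like cells and 1 ungated cell, of which 1 was called a doublet.

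**Figure D4:**
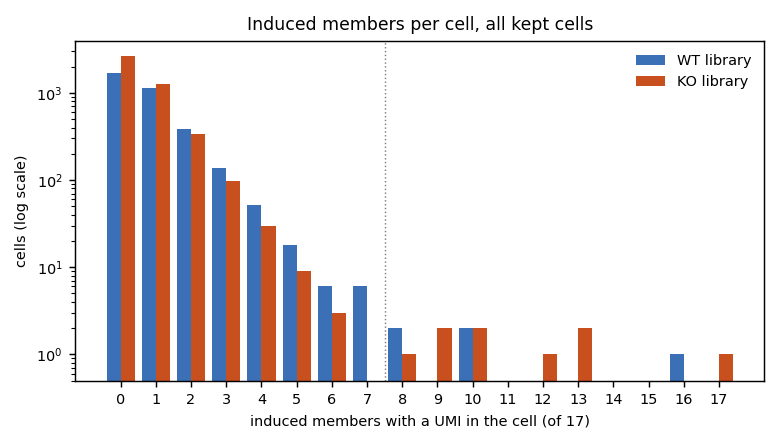
Number of kept cells (log axis) by the number of induced members with a UMI in the cell, of 17, for WT (blue) and KO (orange), with a dotted line before 8. Most cells held 0 or 1 such member, and 5 WT and 9 KO cells lay at 8 or more, up to 16 in WT and 17 in KO.

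Single cells showed how complete the state could be. A KO HSC-like cell with 11000 UMIs and 7 of the 8 HSC markers held all 17 induced members, among them 12 UMIs of Ifit1, 12 of Iigp1, 11 of Isg15 and 10 of Rsad2. It was a cell with Y-linked UMIs and no Xist. A WT ungated cell with 24669 UMIs held 16 of the 17, with 21 UMIs of Ifit1 and 53 of Cxcl10, a chemokine gene outside the list. A further KO HSC-like cell held 10 of the 17 and 54 UMIs of Ifit1. The state was therefore present in WT and KO libraries and in cells with many HSC markers.

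Genes that were not used to choose these cells were also higher in them. Compared with all remaining cells, most often erythroid-primed-like, a list of 42 further interferon-induced genes was 6.01-fold higher in WT and 6.88-fold in KO. That list held Ifit3b and Irgm2, whose reads can be divided with Ifit3 and Igtp of the choosing set, so it was not fully separate from the choice. The Ifitm genes were 3.56-fold and 3.79-fold higher. Within HSC-like cells, 2 chosen WT and 4 chosen KO cells against the other HSC-like cells of their library, the Ifitm genes were 2.19-fold (1.87 to 2.55) and 2.08-fold (1.81 to 2.37) higher, so that part of the difference from all cells came with cell type. Within the same gate the further induced genes were 2.45-fold and 7.33-fold, the 13 members outside both sets 3.97-fold and 5.78-fold, and Bst2 8.29-fold and 10.2-fold higher. Of the 314 UMIs of further induced genes in the 4 KO cells, 179 lay in the cell with all 17 induced members. The Bst2 UMIs numbered 39 in the 2 WT cells and 67 in the 4 KO cells. Interferon genes themselves had 0 UMIs in the chosen cells of either library.

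These few cells held a large part of the UMIs of some members. Among all KO cells they held 77.2% of the UMIs of Ifit1, 70.4% of Ifit3, 67.6% of Iigp1 and 60.8% of Rsad2. In WT they held 52.0% of Ifit1, 46.7% of Iigp1 and 34.1% of Rsad2, but 7.14% of Ifit3, which had 14 UMIs. At the other end they held 0.637% of the Gbp3 UMIs in KO and 1.62% in WT. In KO HSC-like cells 71 of 85 Ifit1 UMIs were in the 4 chosen cells.

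**Figure D5:**
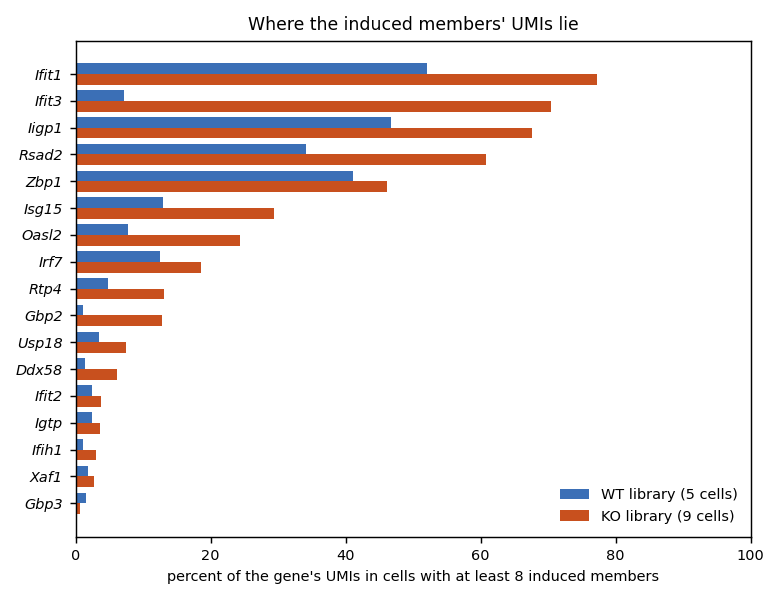
Percent of each induced member's UMIs, over all kept cells, that lay in cells with at least 8 induced members (5 WT cells in blue, 9 KO cells in orange). Ifit1, Ifit3, Iigp1 and Rsad2 had over 60% of their KO UMIs in these cells, whereas Gbp3, Xaf1 and Ifih1 had under 4% in both libraries.

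Leaving those cells out changed the comparison of HSC-like cells. The cells were chosen by UMIs of the induced members, and 4 were KO and 2 WT HSC-like cells, so a lower KO/WT ratio of these members follows in part from the choice. In sum the 17 induced members had 68.7 and 84.1 CPM in WT and KO HSC-like cells (log2 0.29, 0.16 to 0.42), and to 66.1 and 58.03 CPM without the chosen cells (log2 -0.19, -0.34 to -0.04). The ratio of Ifit1 became 1.08 (-0.17 to 2.36) on 11 and 14 UMIs, under the minimum of 50. Irf7 moved from 0.50 to -0.01 and Isg15 from 0.31 to -0.23, whereas Irf1 stayed at 0.46 and Gbp3 at -0.996. Of the 27 members then passing the minimum 0 were called higher and 3 lower, against 2.31% and 2.80% of all genes, and the median was -0.04. The 3 were Gbp3, Gbp2 (-0.58, -1.34 to 0.14) and Oasl2 (-0.55, -1.49 to 0.32), the last 2 with intervals that included 0.

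A milder state was counted after thinning every cell to 8000 UMIs, which left out 25 WT and 106 KO HSC-like cells with fewer. At least 3 of the 17 induced members were then detected in 28 of 787 WT HSC-like cells (3.56%, 2.38 to 5.10) and in 19 of 590 KO cells (3.22%, 1.95 to 4.98). The difference was -0.34 percentage points with an interval from -2.34 to 1.78. Without thinning 12.3% of WT and 5.75% of KO HSC-like cells passed, and the WT cells were deeper. In erythroid-primed-like cells thinned in the same way 0.0607% of WT and 0.132% of KO cells passed, so that the HSC-like share lay above a type with little of the response in both libraries.

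Dormant and cycling stem cells are known to differ in interferon-related transcripts, and HSC-like cells were split by whether any UMI of the proliferation genes Mki67, Top2a or Cenpf was present. Cells without these transcripts had the higher level of the list in both libraries. In WT the sum was 3013 CPM in 130 cells without and 1860 CPM in 682 cells with them (log2 0.70, 0.65 to 0.74). In KO it was 3454 CPM in 106 and 2064 CPM in 590 cells (log2 0.74, 0.69 to 0.80).

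The Ifitm genes led this difference. Ifitm1 stood at 1112 CPM without and 506 CPM with proliferation transcripts in WT (log2 1.13), and at 1360 and 597 CPM in KO (1.19). Ifitm3 differed by 0.85 and 0.95, and Ifitm2 by 0.34 and 0.40. The 30 other members differed by 0.34 in WT and 0.21 in KO, and the 17 induced members by 0.49 (0.22 to 0.74) in WT and 0.07 (-0.30 to 0.42) in KO. Isg15 differed by -0.16 and -0.04 with intervals that included 0. Of the members passing the minimum 11 of 26 were higher and 2 lower in WT (15.6% and 13.1% of all genes), and 8 of 24 higher and 2 lower in KO (14.9% and 18.0%). The medians were 0.43 and 0.33, beside 0.02 and -0.03 for all genes. Cells without these transcripts had medians of 11488.5 UMIs in WT and 7580.5 in KO, against 20385 and 14129 in cells with them, and the part of depth in the split was not tested.

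The KO pool held male cells, here called from Y-linked UMIs without Xist, which the WT pool all but lacked. In the KO library 97 male HSC-like cells had a sum of 2136 CPM and 535 female cells 2164 CPM (log2 -0.02, -0.07 to 0.04), and over all KO cells the log2 difference was -0.26. The median over 21 members was 0.03, beside 0.02 for all genes, and 2 members were higher and 1 lower in male cells (4.88% and 6.88% of all genes). The 17 induced members had 113 CPM in male and 77.4 CPM in female HSC-like cells (0.55, 0.29 to 0.80), but 107 of the 168 male UMIs came from the cell with all 17. Without the cells that held at least 8 induced members the direction turned, with 41.4 CPM in male and 62.5 CPM in female cells (-0.60, -1.005 to -0.21). The 2 sexes come from different embryos of the pool, so sex and embryo cannot be told apart.

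The other genes of the pathway were read in HSC-like cells from a list of 102, of which 99 were in the tables and 58 had at least 50 UMIs. Of these 6 were called higher and 3 lower, where 2.40% and 2.79% of all genes were, and the median was 0.01. The 20 interferon genes had 2 UMIs in WT and 0 in KO over all cells, and 19 of them were at 0 in both libraries, so that any interferon transcripts lay below the depth of these libraries. A gene at 0 UMIs in HSC-like cells could still have up to 0.182 CPM in WT cells and 0.302 CPM in KO cells, the levels of 3 UMIs.

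Receptors and signal transducers were expressed in HSC-like cells of both genotypes and none was called. The type I receptor genes Ifnar1 (17.5 CPM in WT, 16.0 in KO) and Ifnar2 (64.8 and 60.5) and the type II receptor gene Ifngr1 (48.2 and 48.6) had ratios within 0.13 of 0. Ifngr2 was at 23.3 and 29.1 CPM (0.32, 0.09 to 0.54), and Il10rb, a subunit of the type III receptor, at 16.9 and 17.1 CPM. Ifnlr1, its specific subunit, was at 0 UMIs. Jak1 was at 113 and 130 CPM (0.20, 0.10 to 0.30), Jak2 at 13.3 and 14.4, Tyk2 at 9.36 and 8.65 and Stat3 at 40.1 and 37.6 CPM. Among 8 restraining genes with at least 50 UMIs none was called, and among 11 sensing genes Dhx58, the gene of the RNA sensor LGP2, was lower (4.74 and 3.32 CPM, -0.51 with an interval that included 0).

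Besides Dhx58, the called genes outside the list were further interferon-induced genes. Shisa5, a p53-induced endoplasmic reticulum protein gene, rose from 55.4 to 94.4 CPM (log2 0.77, 0.64 to 0.90). Slfn2, a Schlafen gene tied to quiescence in lymphocytes, rose from 8.76 to 16.7 CPM (0.93, 0.60 to 1.26), and Ifi204, a DNA-binding p200 family gene, from 2.07 to 6.14 CPM (1.57, 0.94 to 2.22). Oas1c (1.16), Gbp5 (1.04) and Ifi44 (0.73) were also past the fold, the last with an interval that included 0. Of the 31 Ifi44 UMIs in KO HSC-like cells 13 lay in the cell with all 17 induced members. Further chosen KO HSC-like cells held 5 and 4, and a chosen WT cell held 6 of the 31 in WT. The 4 chosen KO cells held 314 UMIs of the further induced genes and the 2 chosen WT cells 80. The ratios of these genes were not recomputed without the chosen cells. Cmpk2 (-0.54) and Ifi27l2a (-0.53) were lower with intervals that included 0. Of 28 further induced genes with at least 50 UMIs 6 were called higher and 2 lower, against 2.40% and 2.79% of all genes. Their median was 0.03, and ratios ran from -0.54 to 1.57. Oas1c and the p200 and Schlafen genes have close paralogs, between which counts can be divided.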

How the data were processed

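Single-cell RNA sequencing was done by the authors on LSK cells from 1 WT and 1 IκBα KO pool of E14.5 fetal livers. The authors aligned reads with Cell Ranger 6.0.0 to mm10 and deposited raw counts of UMIs per gene and cell, which are free of PCR copies but shift with capture and depth. Totals were 109122324 UMIs in 3840 WT barcodes and 100029143 in 4928 KO barcodes. Cells with fewer than 1000 genes or over 20% mitochondrial UMIs were left out. Scrublet (scanpy 1.11.5, expected rate 5%) called 3.90% of WT and 5.80% of KO cells doublets, which were kept.

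UMIs were summed per library and marker-gated type and given as CPM with exact Poisson intervals. Ratios had exact conditional intervals and shares exact Clopper-Pearson intervals. Genes with at least 50 UMIs and a log2 ratio of at least 0.5 were called, with no test. The gates, rebuilt here, took the first type whose minimum number of markers was met, from 2 (lymphoid-primed-like) to 6 (hepatocyte-like). Their order was hepatocyte, endothelial, macrophage, megakaryocyte, erythroid-primed, monocyte/dendritic, neutrophil-primed, HSC and lymphoid-primed. The monocyte/dendritic-like gate also asked for a larger share of its own markers than of the neutrophil markers. Intervals were checked on simulated counts. Named were the 8 highest members in HSC-like cells, every member called there or in at least 2 gates, and members at 0 UMIs; other members named beside them were chosen after their values were seen. The members and lists were chosen with earlier results of these data known. Alternatives covered filters, doublets, clusters, thinning, scaling, the UMI minimum and sex. The HSC-like gate at 4 markers and the removal of single cells or of cells with at least 8 induced members were added after seeing the data. Gene positions came from GENCODE vM21 (python 3.11.15, scipy 1.17.1), and promoter sequences from RefSeq, where 6 members (Ifi27, Zbp1, Parp14, Rtp4, Iigp1 and Usp18) had none. A gene of the pathway list is not reported here.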

Additional observations from a re-analysis of the deposited data

How the results depend on the processing

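The log2 KO/WT of the summed list in HSC-like cells stayed above 0 in all 11 alternatives (0.05 to 0.21) and the median of the members lay between -0.04 and 0.14 in 13. The main values that moved by more than the counting error of the reported ones, and single results that turned, are given by setting as log2 ratios, and their cause was not tested. Without doublet calls 2 members were called higher and HSC-like over erythroid-primed-like cells was 2.42. With clusters in place of gates the sum was 0.11, 3 members were called higher, the lymphoid-primed-like median was -0.15, and HSC-like cells stood above lymphoid-primed-like by 0.67, neutrophil-primed-like by 0.84 and macrophage-like cells by 0.39; no cluster was monocyte/dendritic-like. With gates on thinned cells (463 WT and 361 KO HSC-like cells) the sum was 0.053, 0 members were called higher, the neutrophil-primed-like median was 0.17, the monocyte/dendritic-like sum was 0.14 instead of -0.09, and the basal differences were 0.80, 1.56, 0.71 (monocyte/dendritic-like) and 2.65 (erythroid-primed-like). Totals without haemoglobin, mitochondrial and ribosomal protein genes gave basal differences of 1.15 (neutrophil-primed-like), 0.51, 2.22 and 0.77 (macrophage-like), and proliferation splits of 0.78 in WT and 0.85 in KO. Median-of-ratios scaling gave 0.39, 0.94, 0.37, 1.88 and 0.64 for lymphoid-primed-like, neutrophil-primed-like, monocyte/dendritic-like, erythroid-primed-like and macrophage-like cells. The mean CPM per cell gave a sum of 0.18, 2 members called higher, and 0.74, 1.29, 0.62 and 2.57 for the first 4 of these types. Without the Ifitm genes the sum was 0.072, the basal WT values were 0.35, 0.77, 0.30, 1.28 and 0.012 in the same order, the KO value against macrophage-like cells was -0.35, and the monocyte/dendritic-like KO/WT was 0.27. With the HSC-like gate at 4 markers the median was 0.14, the sum 0.21, and the basal values 0.65, 1.22, 0.57, 2.36 and 0.82.

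Members called higher numbered 3 at a minimum of 20 UMIs, 0 at 100 and 6 with no minimum; in cells with Xist and no Y-linked UMI 2 were higher and 2 lower, and without cells with at least 8 induced members 0 were higher and 3 lower. The share of HSC-like cells with several induced members differed by -6.57 points without thinning, and the male over female sum was -0.26 over all cells. Without cells with at least 8 induced members it was -0.12 in HSC-like cells, and that of the induced members -0.60 instead of 0.55. Ifit1 in HSC-like cells had 2.26 with clusters, 2.16 with gates on thinned cells and 2.46 with the gate at 4 markers; the erythroid-primed-like KO/WT sum was 0.14 with clusters and -0.06 without doublet calls. The median of all genes moved by less than 0.1 between scalings. No paired analysis was possible because WT and KO were sequenced as 1 library each. Depth limits the 5 members under 50 UMIs in HSC-like cells and the gates with few cells.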
